A study of Homo sapiens with 15 samples.

Results

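THP-1 cells, a human monocytic leukemia line, were stimulated with bacterial extracellular vesicles (BEVs) of *E. coli* that had been collected by ε-poly-L-lysine precipitation (PL) or by ultracentrifugation (UC), and the RNA of the cells was sequenced. The groups of the comparison were defined by the sample labels. It holds 6 of the 15 libraries of the series, 3 with *E. coli* BEVs from PL (EPL1 to EPL3) and 3 with *E. coli* BEVs from UC (EUC1 to EUC3). Both groups were wild-type THP-1 cells and received BEVs at a protein concentration of 1 μg/mL, so the isolation method was the labelled difference between them. The other 9 libraries were 3 of cells with PBS (NC) and 3 each of cells with 10 μg/mL *S. aureus* BEVs from UC (SUC) or PL (SPL). The labels give the time as Day 0 and the methods of the study give 6 h of incubation. No library of cells given ε-PL without BEVs is among the 15. THP-1 is a single cell line, and no source says whether the 3 libraries of a group came from separate BEV preparations or cultures, so p-values measure the spread between these libraries, which may be technical. The question was whether BEVs collected by PL led to another host response than BEVs collected by UC.

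Gram-negative bacteria shed vesicles from their outer membrane, and these carry lipopolysaccharide (LPS) together with proteins, lipoproteins and nucleic acids. Monocytes sense LPS through TLR4 with its partners CD14 and MD-2, and the signal divides into an arm through MYD88, which leads to NF-kappa B and to cytokines such as TNF, IL-1β and IL-8, and an arm through TRIF and IRF3, which leads to type I interferon and the interferon-stimulated genes. Vesicles are also taken up by endocytosis and reach endosomes and lysosomes.

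The study measured IL1B, IL6 and CXCL8 by qRT-PCR with GAPDH as the reference, and the primers show which stretch of each mRNA that assay reads, beside the gene-wide counts used here. Those of the response genes are printed. All 6 primers matched GENCODE release 44 transcripts on hg38 and lay in coding sequence. They are printed 5′ to 3′, the forward primer as on the mRNA and the reverse primer as its complement.
IL1B forward, exon 4, chr2:112833506-112833525: acgaatctccgaccaccact
IL1B reverse, exon 4, chr2:112833461-112833480: ccatggccacaacaactgac
IL6 forward, exon 5, chr7:22731436-22731454: gacccaaccacaaatgcca
IL6 reverse, exon 5, chr7:22731484-22731503: gtcatgtcctgcagccactg
CXCL8 forward, exon 1, chr4:73740671-73740688: ctggccgtggctctcttg
CXCL8 reverse, across the junction of exons 1 and 2, between chr4:73740720 and 73741558: ccttggcaaaactgcacctt
The products were 65 bases for IL1B, 68 for IL6 and 69 for CXCL8.

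The 6 libraries were alike in depth, with 15457227 to 16637345 reads counted on genes, and 4.33% to 4.53% of the counts fell on mitochondrial genes. The monocyte markers, 12 genes, summed to 3354 to 3628 counts per 1000000 counted reads (CPM) in EUC and 3176 to 3890 in EPL, while CD68, one of the 12, had 6 counts over the 6 libraries. Markers of other cell types were at or near 0, with sums of at most 0.0624 CPM for T cells, 0.384 for epithelial cells, 0.657 for endothelial cells and 0 for erythroid cells. The sums were at most 4.56 CPM for B cells and 6.95 for fibroblasts. EUC3 and EPL1 stood apart from the others of their groups. The first axis of the differences between libraries of a group held 63.5% of their variance over 14504 genes, and it placed EUC3 (loading -0.639) and EPL1 (-0.460) opposite EUC1 (0.506). In EUC3 the tenth of genes with the shortest transcripts (at most 1293 bases) lay 0.214 log2 units above the EUC mean in the median and the tenth with the longest (at least 7766 bases) lay 0.247 below it, that is at -0.247. EPL1 had 0.138 and -0.214 for the same genes, and EUC1 had -0.154 and 0.184. Values with and without these libraries are given beside the results that rest on them. The part of transcript length in those results was tested only through a fit corrected for length and GC content of the transcripts, here called the length and GC fit.

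No gene differed between EPL and EUC by the thresholds used here, which were a 2-fold difference and, in edgeR's quasi-likelihood test, an adjusted p not above 0.01 (0 of 17198 genes, 0%). The smallest adjusted p was 0.947. At an unadjusted p of at most 0.05 there were 604 genes (3.51%), of which 324 were lower in EPL (1.88%) and 280 higher (1.63%). The count depended on single libraries. It was 402 without EUC3 (2.27% of the genes tested in that fit, 195 lower and 207 higher in EPL), 2232 without EUC1 (12.7%, 1168 lower and 1064 higher) and 1721 without EPL1 (9.71%, 1042 lower and 679 higher). Without EPL3 it was 520 (2.95%), with 247 lower and 273 higher, so that without EUC3 or without EPL3 more of these genes were higher than lower in EPL. Without EUC3 and EPL1 together it was 704 (3.99%), and in the length and GC fit 826 (4.80%). DESeq2 also called 0 genes, with 554 at an unadjusted p of at most 0.05. The 3 EPL libraries lay all below the 3 EUC libraries for 561 genes (3.26%) and all above them for 535 (3.11%), so the groups did not overlap for 1096 genes (6.37%). The median difference over all genes was 0.0032 on the log2 scale, and 49.3% of genes had the lower fitted value in EPL. Among the 9290 genes with a mean of at least 10 CPM over the 6 libraries, the differences had an SD of 0.133 (log2), against 1.02 for the response of the same genes to *E. coli* BEVs over NC. The largest difference among them was that of IL12B, 0.875 (log2) lower in EPL. A count of 0 calls does not show that the groups were equal, so the limits on the differences are given next.

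A 95% interval of the difference lay inside 2-fold for 13335 of the 17198 genes (77.5%). A pair of 1-sided tests against 2-fold, with adjusted p-values not above 0.01, put the difference below 2-fold for 12164 genes (70.7%), and the same against 1.5-fold did so for 7933 genes (46.1%). These limits rest on a spread estimated from all 15 libraries. With the 6 libraries alone 5011 of 16011 tested genes were placed below 1.5-fold. The limits depended on the level of the gene. With a mean of 10 to 100 CPM, 99.0% of 7000 genes were placed below 2-fold and 77.6% below 1.5-fold. From 100 CPM on these shares were 99.1% and 83.7% of 2290 genes. With 1 to 10 CPM they were 56.4% and 11.1% of 5233 genes, and under 1 CPM they were 0.486% and 0% of 2675 genes. Counts of list members placed below a limit, given further on, are to be read beside these shares. The interval reached 1.19-fold to either side in the median gene at 10 to 100 CPM and 2.17-fold under 1 CPM. To reach an adjusted p of 0.01 as the gene with the smallest p, the median gene needed a 1.70-fold difference from 100 CPM on. It needed 1.90-fold at 10 to 100 CPM and 4.15-fold at 1 to 10 CPM. A call required a 2-fold difference as well. A 2-fold difference was therefore within reach of the test in most genes above 10 CPM and out of reach in most genes below it.

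**Figure D1:**
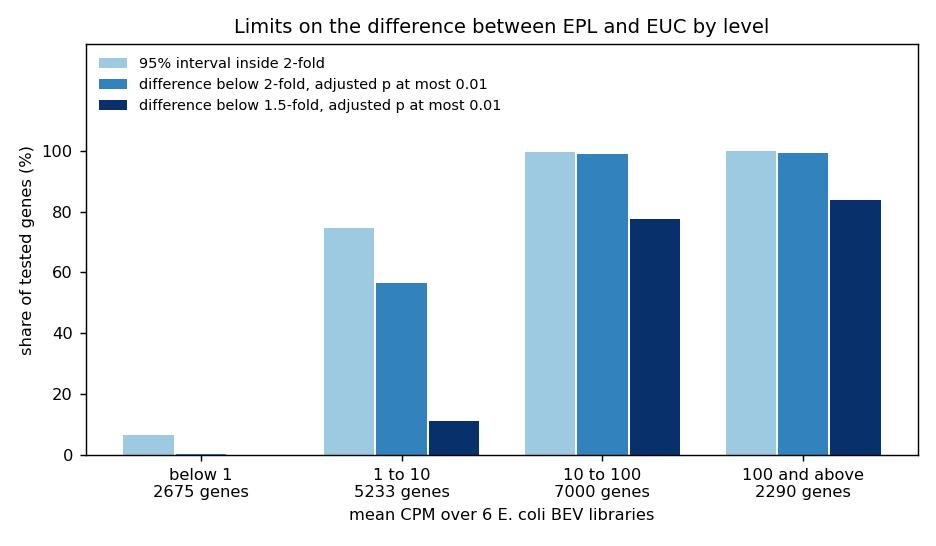
Share of tested genes (%) for which the difference between EPL and EUC was limited, by mean CPM over the 6 *E. coli* BEV libraries. Light bars are genes with a 95% interval inside 2-fold, and the darker bars are genes placed below 2-fold or below 1.5-fold by the tests against those limits. The share below 2-fold is 0.486% under 1 CPM and 99.1% from 100 CPM on.

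At 10 CPM and above, the interval reached 2-fold for 30 of 9290 genes, so a 2-fold difference could not be set aside for these. They include IL12B, CCL20, RGCC and G0S2, which were lower in EPL in every library, and CIITA, the regulator of MHC class II genes, which had 18.4, 11.9 and 8.81 CPM in EUC and 17.6, 20.5 and 19.8 in EPL. The groups overlapped for CIITA because EUC1 lay among the EPL libraries.

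The response to *E. coli* BEVs, taken as the mean of EUC and EPL over NC, was large. It raised 1689 genes (9.82%) and lowered 1012 (5.88%) by the same thresholds. Of the raised genes, 59.8% had the lower fitted value in EPL, with a median difference of -0.052 (0.965-fold), against 49.3% and 0.0032 over all genes. Of the lowered genes, 37.5% had the lower fitted value in EPL, with a median of 0.064 (1.05-fold). Thus the genes that BEVs raised leaned to lower and the genes that BEVs lowered leaned to higher values in EPL. Without EUC3 and EPL1 the median of the lowered genes was 0.032, with 46.3% lower in EPL. Genes that were neither raised nor lowered, 14497 in all, had a median of 0.0049.

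The lean grew with the size of the response. The median was -0.037 for 1169 genes raised 2- to 8-fold, -0.092 for 331 raised 8- to 32-fold and -0.17 (0.892-fold) for 189 raised 32-fold and above. In this last set 136 genes (72.0%) had the lower fitted value in EPL, 23 passed an unadjusted p of 0.05 (12.2%, against 3.51% of all genes), and 22 of these 23 were lower in EPL. Without EUC3 the medians of the 3 sets were -0.030, -0.066 and -0.12, and without both EUC3 and EPL1 they were -0.037, -0.076 and -0.11. In the length and GC fit they were -0.048, -0.089 and -0.15. The order of the sets was the same in these 3 alternatives. Summed up per library, the mean rise of the raised genes over NC was 2.40, 2.39 and 2.34 (log2) in EUC1 to EUC3 and 2.32, 2.36 and 2.32 in EPL1 to EPL3. The groups overlapped in this measure, because EPL2 lay above EUC3. The mean of the lowered genes was -1.53, -1.56 and -1.67 in EUC and -1.50, -1.50 and -1.52 in EPL, without overlap. With 3 libraries against 3, an exact permutation test of these measures cannot give a p below 0.1. The differences were small beside the limits. Of the 864 raised genes with at least 10 CPM, 851 (98.5%) were placed below 2-fold and 628 (72.7%) below 1.5-fold.

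**Figure D2:**
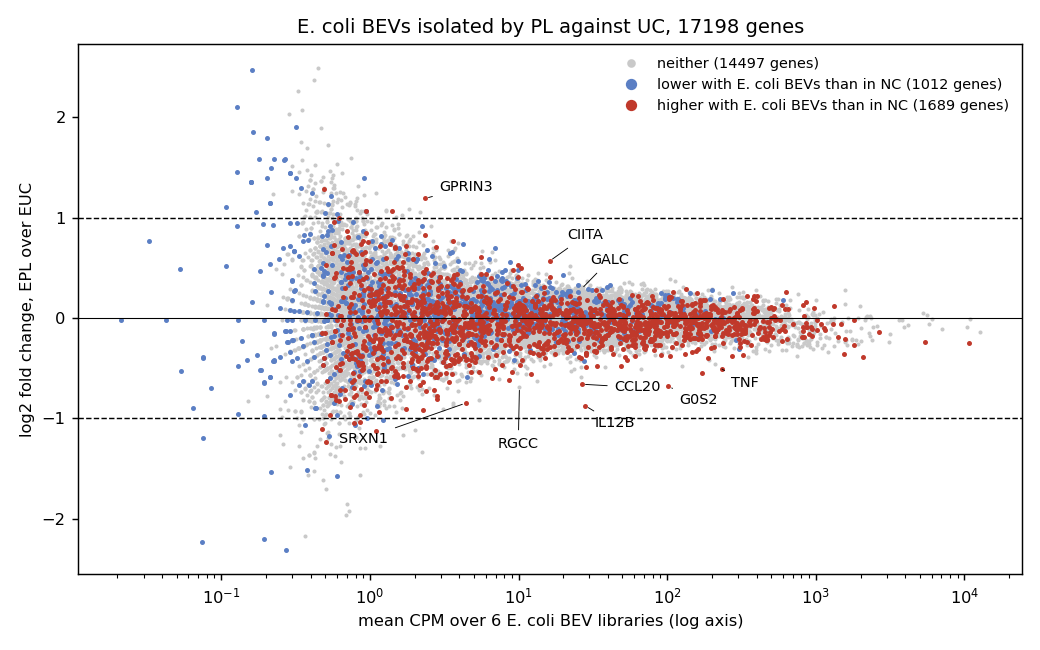
Log2 fold change of EPL over EUC against the mean CPM of the 6 *E. coli* BEV libraries (log axis) for 17198 genes, coloured by the response to the BEVs over NC, with dashed lines at 2-fold. The 1689 raised genes (red) lie more often below 0 than above it, and no gene from 10 CPM on reaches a dashed line.

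Cytokines mostly had lower fitted values in EPL, although no member was called. Of 28 cytokines in the list, 24 were tested and 20 of these were raised by *E. coli* BEVs over NC. The fitted value was lower in EPL for 20 of 24, the median difference was -0.23, and 7 passed an unadjusted p of 0.05 (IL1A, IL1B, IL12B, IL23A, IL32, TNF and LTB), all with lower values in EPL. The share of 7 in 24 stands beside 3.51% of all genes. The difference was placed below 2-fold for 15 of the 24, beside 70.7% of all genes.

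TNF, the early cytokine of the LPS response, had 18.3, 19.0 and 17.3 CPM in NC, 227, 273 and 323 in EUC and 203, 194 and 182 in EPL. The EPL libraries all lay below the EUC libraries and more than 100 CPM above NC. The log2 difference was -0.51 (SE 0.12, 95% interval -0.76 to -0.26, edgeR unadjusted p = 0.000535), and it was placed below 2-fold (adjusted p = 0.000612) but not below 1.5-fold. IL12B, the p40 chain shared by IL-12 and IL-23, had 26.4, 39.0 and 43.6 CPM in EUC and 17.6, 21.9 and 19.9 in EPL, with at most 0.176 in NC. The groups did not overlap, and the difference of -0.87 (SE 0.19, interval -1.28 to -0.47, edgeR unadjusted p = 0.000325) had the smallest p of all genes with at least 1 CPM. IL23A, the other chain of IL-23, had 173, 201 and 240 CPM in EUC and 151, 143 and 126 in EPL, again without overlap (-0.55, interval -0.89 to -0.21).

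IL1B, a product of the inflammasome pathway after cleavage of its protein, went from 1.54, 2.71 and 2.21 CPM in NC to 1524, 1688 and 1987 in EUC and to 1390, 1390 and 1273 in EPL. Every EPL library lay below every EUC library, and the means were 1733 ± 235 and 1351 ± 67.9 (SD, n = 3). The log2 difference was -0.36 (interval -0.63 to -0.09), beside a rise of 9.46 over NC. IL6 was hardly expressed, with 0 CPM in the 3 NC libraries, 0.585, 1.22 and 1.71 in EUC and 0.787, 0.573 and 0.562 in EPL. The groups overlapped, and the interval of -1.82 to 0.08 (log2) did not place the difference of IL6 below 2-fold. GAPDH, the reference gene, had 675, 716 and 747 CPM in EUC and 720, 670 and 688 in EPL, which overlapped, and its difference of -0.04 (interval -0.19 to 0.11) was placed below 1.5-fold (adjusted p = 2.39e-05).

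EUC3 had the highest value of IL1B, IL12B, IL23A and TNF, and EUC1 the lowest of the EUC group. In the median over the 24 cytokines, log2 CPM relative to the mean of the 6 libraries was -0.036, 0.15 and 0.33 in EUC1 to EUC3 and -0.024, -0.12 and -0.23 in EPL1 to EPL3. EPL1 lay just above EUC1 in this median, so the groups overlapped. Without EUC3 the list median was -0.20 with 15 of 24 lower in EPL. In that fit 3 members instead of 7 passed an unadjusted p of 0.05, where 2.27% of all genes did. Without EUC3 and EPL1 the list median was -0.25 with 17 of 23 lower. In the length and GC fit it was -0.22 with 20 of 24. It was -0.15 with 18 of 24 without EPL3 and -0.35 with 22 of 24 without EPL1. TNF stood at -0.51 with all libraries, -0.37 without EUC3, -0.63 without EUC1, -0.41 without EUC3 and EPL1 and -0.45 in the length and GC fit, and IL12B stood at -0.87, -0.72, -1.06, -0.64 and -0.83.

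**Figure D3:**
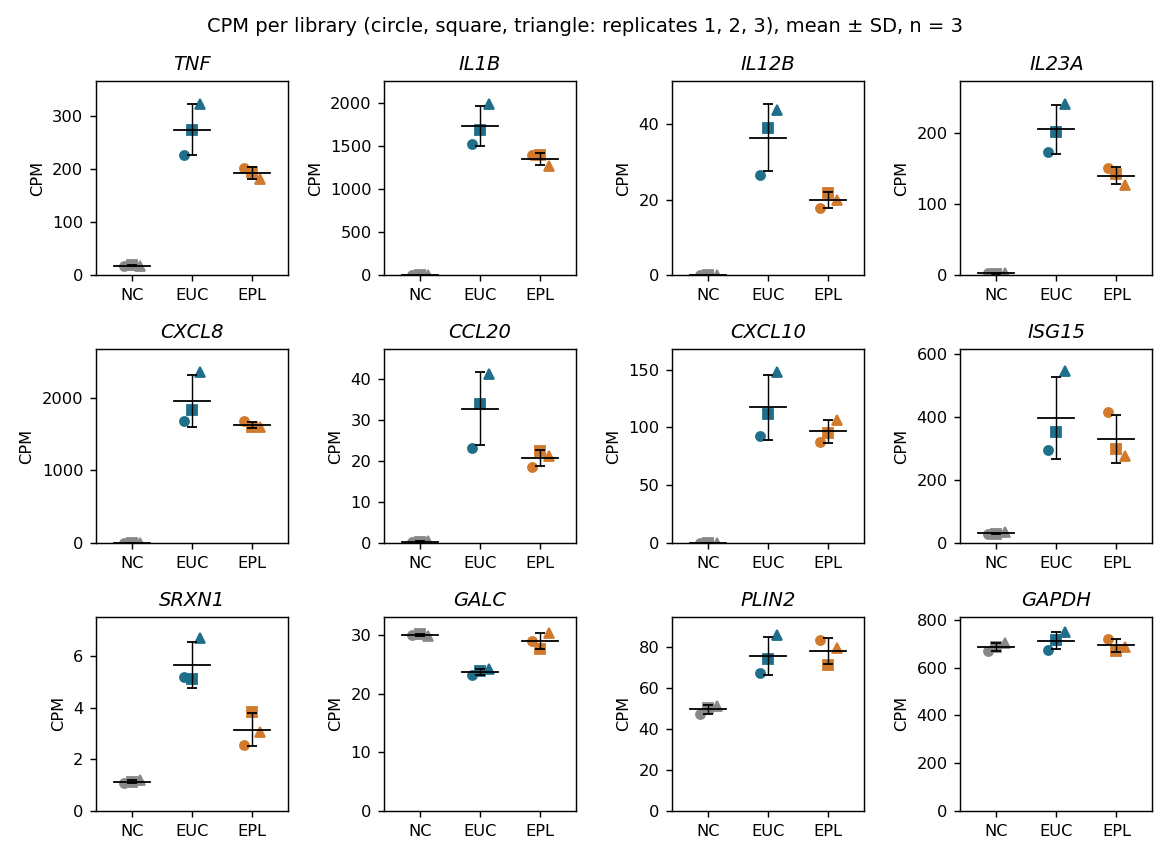
CPM per library for 12 genes in NC, EUC and EPL (circle, square and triangle for replicates 1, 2 and 3, line and bars for the mean ± SD, n = 3, each vertical axis from 0). TNF, IL1B, IL12B, IL23A, CCL20 and SRXN1 have every EPL library below every EUC library, while CXCL10, ISG15, PLIN2 and GAPDH overlap.

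Chemokines leaned the same way. Of 22 tested members, 20 were raised over NC, 17 had the lower fitted value in EPL, and the median difference was -0.20. CCL3, CCL4, CCL20 and CXCL8, 4 of the 22, passed an unadjusted p of 0.05, all lower in EPL, where 3.51% of all genes did. Without EUC3 there was 1 such member, where 2.27% of all genes passed, and without EUC3 and EPL1 there was also 1, where 3.99% did. CCL20, which attracts CCR6-bearing dendritic cells and lymphocytes, had 23.2, 33.8 and 41.0 CPM in EUC and 18.6, 22.4 and 21.1 in EPL, with at most 0.417 in NC. The groups did not overlap, at a difference of -0.66 (interval -1.01 to -0.31). CXCL8, the gene of the neutrophil attractant IL-8, had 1682, 1835 and 2360 CPM in EUC and 1680, 1600 and 1603 in EPL. EUC1 and EPL1 were almost equal, and the difference of -0.27 (interval -0.52 to -0.02) was placed below 2-fold (adjusted p = 1.48e-05). Leaving out each library in turn moved the CXCL8 difference between -0.365 and -0.110. The chemokine median was -0.086 without EUC3, with 15 of 22 lower, -0.34 without EUC1, with 19 of 22, -0.099 without EUC3 and EPL1, with 18 of 22, and -0.13 in the length and GC fit, with 17 of 22.

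Of the 22 tested chemokines, 3 had every EPL library below every EUC library, CCL20 and CXCL8 among them. Examples of other strongly raised chemokines that overlapped between the groups were CCL8, CXCL10 and CCL5. CCL8, a monocyte attractant, had no count in NC, 36.8, 36.6 and 49.0 CPM in EUC and 38.4, 36.9 and 32.5 in EPL, which overlapped (-0.18, interval -0.51 to 0.15). CXCL10, an interferon-inducible T cell attractant, had 92.7, 112 and 148 CPM in EUC and 87.5, 95.1 and 107 in EPL, with overlap (-0.28, interval -0.58 to 0.01). CCL5 had 275, 269 and 328 CPM in EUC and 357, 281 and 256 in EPL, where EPL1 was the highest library of all 6 (0.04, interval -0.21 to 0.28).

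The list of LPS and peptidoglycan sensing did not lean to lower values in EPL. Beside sensors it holds other Toll-like receptors (TLR5, TLR7 and TLR8), adaptors, kinases and AOAH. Of 22 tested members 16 were higher in EPL, with a median difference of 0.078, and 21 were placed below 2-fold. The median was 0.16 without EUC1 and 0.019 without EPL3. Among LPS sensors the difference was 0.11 for TLR4, -0.27 for CD14, -0.03 for CASP4 and -0.63 for CASP5, whose interval reached 2-fold. For NOD1 and NOD2, which sense peptidoglycan, it was 0.21 and 0.23. TLR4, the LPS receptor, had 66.1, 61.0 and 57.7 CPM in EUC and 55.4, 72.5 and 71.7 in EPL, where EPL1 was below the whole EUC group and the other libraries above it. CD14, which hands LPS to the receptor, was between 6.24 and 9.16 CPM in the 6 libraries, and LY96, the gene of MD-2, had 8 counts over all 6 and was not tested. IRAK2, a kinase that sustains signalling after MYD88, was the member with the smallest p, at 43.1, 52.1 and 50.6 CPM in EUC and 36.6, 38.8 and 38.1 in EPL, without overlap (-0.36, interval -0.59 to -0.13). AOAH, the enzyme that inactivates LPS by removing its secondary acyl chains, had 11.1, 9.48 and 7.30 CPM in EUC and 11.1, 12.2 and 12.3 in EPL (0.35, interval 0.05 to 0.65), and EPL1 lay just below EUC1.

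The NF-kappa B subunits and their feedback genes were close between the groups. Of 21 members, 17 were raised over NC, 15 had the lower fitted value in EPL, the median difference was -0.073, and 20 were placed below 2-fold and 19 below 1.5-fold. The median level of the list was 161 CPM, and from 100 CPM on 99.1% and 83.7% of all genes were so placed. The median difference was -0.14 without EPL1, -0.047 without EUC3 and -0.031 without EPL3. TNFAIP3 (A20), which ends NF-kappa B signalling, had 611, 604 and 524 CPM in EUC and 543, 605 and 571 in EPL (-0.02, interval -0.22 to 0.19). NFKBIA, the inhibitor IκBα, had 533, 579 and 735 CPM in EUC and 660, 539 and 509 in EPL. Both genes overlapped between the groups. TNIP3, a partner of A20, was the member at an unadjusted p under 0.05, at 32.9, 31.4 and 30.8 CPM in EUC and 20.7, 26.8 and 27.1 in EPL (-0.35, interval -0.65 to -0.05). REL was the member whose interval reached 2-fold, with 56.4, 41.7 and 16.2 CPM in EUC and 17.8, 63.2 and 59.3 in EPL, so that its low values were those of EUC3 and EPL1.

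The interferon-stimulated genes were split evenly between the groups with all libraries. All 38 were tested, 37 were raised over NC, 18 were lower and 20 higher in EPL, and the median difference was 0.0059. No member passed an unadjusted p of 0.05 in edgeR, where 3.51% of all genes did, all 38 were placed below 2-fold and 27 below 1.5-fold. The median level of the list was 152 CPM, and from 100 CPM on 99.1% and 83.7% of all genes were so placed. MX1, an antiviral GTPase, had 118, 116 and 118 CPM in EUC and 118, 123 and 113 in EPL (0.01, interval -0.19 to 0.20), after 4.23 to 5.47 in NC. OAS1, the sensor of double-stranded RNA, had 127, 126 and 132 in EUC and 133, 133 and 130 in EPL. The 3 libraries of either group lay within 11 CPM of each other for both genes. ISG15, a short ubiquitin-like gene, had the lowest difference of the list, with 297, 354 and 546 CPM in EUC and 416, 298 and 277 in EPL (-0.27, interval -0.72 to 0.18), and its high values were those of EUC3 and EPL1. Without EUC3 only 11 of 38 were lower in EPL with a list median of 0.030, and without EUC3 and EPL1 12 of 38 with 0.045, while in the length and GC fit 21 of 38 were lower with -0.0067. The split thus moved with the libraries, and the medians stayed small. Whether the cytokines and the interferon-stimulated genes differed from each other in their difference between EPL and EUC was not tested.

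**Figure D4:**
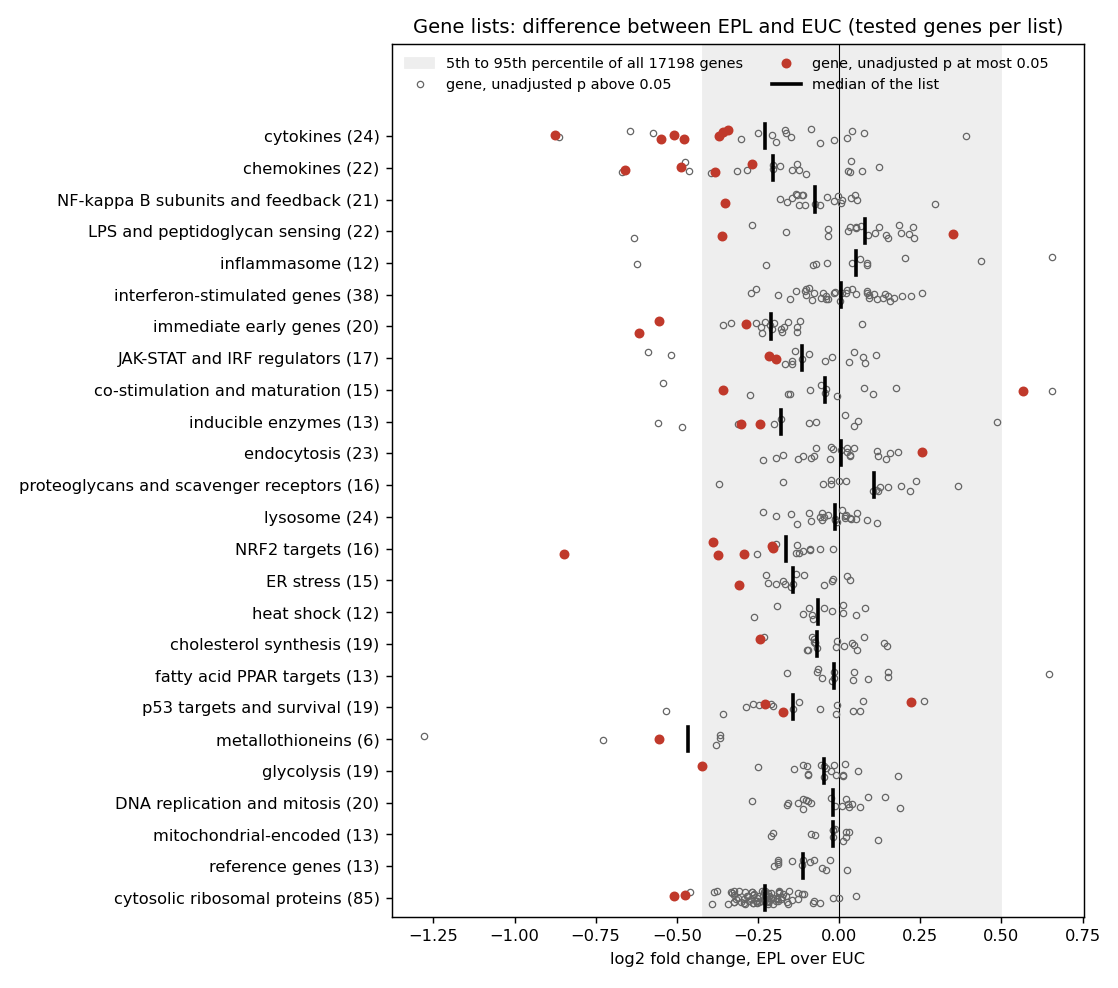
Log2 fold change of EPL over EUC for each tested member of 25 gene lists (open circles, filled red where the unadjusted edgeR p is at most 0.05), with the list median as a bar and the 5th to 95th percentile of all genes shaded. The medians are -0.23 for cytokines, 0.0059 for interferon-stimulated genes and -0.23 for cytosolic ribosomal proteins.

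Immediate early genes, the transcription factors and phosphatases induced within minutes of a signal, had the lower fitted value in EPL for 19 of 20 members, with a median of -0.21, and 12 of them were raised over NC. EGR2, IER3 and MAFF, 3 of the 20, passed an unadjusted p of 0.05, beside 3.51% of all genes. MAFF, a small MAF transcription factor, had 12.4, 14.7 and 16.5 CPM in EUC and 9.97, 10.3 and 9.30 in EPL, without overlap (-0.56). JUN had 308, 310 and 315 CPM in EUC and 295, 283 and 257 in EPL, also without overlap (-0.16, interval -0.34 to 0.02). In the median over the list EPL3 was the lowest library, at -0.30 relative to the mean of the 6, against 0.0030 in EPL1 and -0.063 in EPL2. Without EPL3 the median difference was -0.12 with 19 of 20 lower and 2 members at an unadjusted p of 0.05, where 2.95% of all genes passed. Without EUC3 it was -0.16 with 20 of 20 lower and 7 such members (2.27% of all genes), without EUC3 and EPL1 it was -0.26 with 20 of 20 and 7 (3.99%), and in the length and GC fit it was -0.19 with 19 of 20 and 7 (4.80%).

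The NRF2 targets, genes of glutathione, thioredoxin and iron handling that answer oxidative stress, were lower in EPL for all 16 members, with a median of -0.16, and 13 were raised over NC. Unadjusted p-values of at most 0.05 were found for 6 of the 16 (NQO1, GCLM, SRXN1, OSGIN1, FTH1 and SQSTM1), beside 3.51% of all genes, and 15 of the 16 were placed below 2-fold. SRXN1, which repairs oxidised peroxiredoxins, had 5.20, 5.13 and 6.71 CPM in EUC and 2.56, 3.82 and 3.06 in EPL, after 1.09, 1.12 and 1.19 in NC. All EPL libraries lay between NC and EUC, at a difference of -0.85 (SE 0.20, interval -1.28 to -0.42). OSGIN1, an inducible stress-response gene, had 85.1, 101 and 120 CPM in EUC and 84.5, 78.6 and 73.7 in EPL (-0.37, interval -0.61 to -0.14), where EUC1 and EPL1 nearly met. HMOX1, heme oxygenase 1, had 746, 827 and 1005 CPM in EUC and 868, 756 and 734 in EPL and overlapped (-0.13). Without EUC3 the count lower in EPL was 13 of 16 with a median of -0.11, and 2 members instead of 6 had an unadjusted p of at most 0.05 (2.27% of all genes). Without EUC3 and EPL1 it was 15 of 16 with -0.11 and 5 such members (3.99%), and in the length and GC fit 16 of 16 with -0.16 and 8 (4.80%).

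Cytosolic ribosomal proteins and common reference genes also had lower fitted values in EPL, and these values moved with EUC3. The cytosolic ribosomal proteins, of which none was raised or lowered over NC, had the lower fitted value in EPL for 83 of 85 members. Their median was -0.23, the same as the cytokines, and 2 of 85 passed an unadjusted p of 0.05, beside 3.51% of all genes. RPL30 had 107, 128 and 203 CPM in EUC and 118, 103 and 94.8 in EPL, so that EUC3 was the high library. Without EUC3 the ribosomal median was -0.011 with 54 of 85 lower and 0 at an unadjusted p of 0.05, where 2.27% of all genes passed. Without EUC1 it was -0.39 with 69 at that p, where 12.7% of all genes passed, and without EUC3 and EPL1 it was -0.095 with 79 of 85. In the length and GC fit it was -0.19 with 82 of 85. The common reference genes, of which 2 were raised over NC, were lower in EPL for 12 of 13 with a median of -0.11, and without EUC3 for 6 of 13 with a median of 0.00064. Without EUC3 and EPL1 they were lower for 10 of 13 with -0.066, and in the length and GC fit for 10 of 13 with -0.11. In each library the ribosomal median, relative to the mean of the 6, was -0.22, 0.028 and 0.50 in EUC and 0.056, -0.18 and -0.19 in EPL, so that the groups overlapped.

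**Figure D5:**
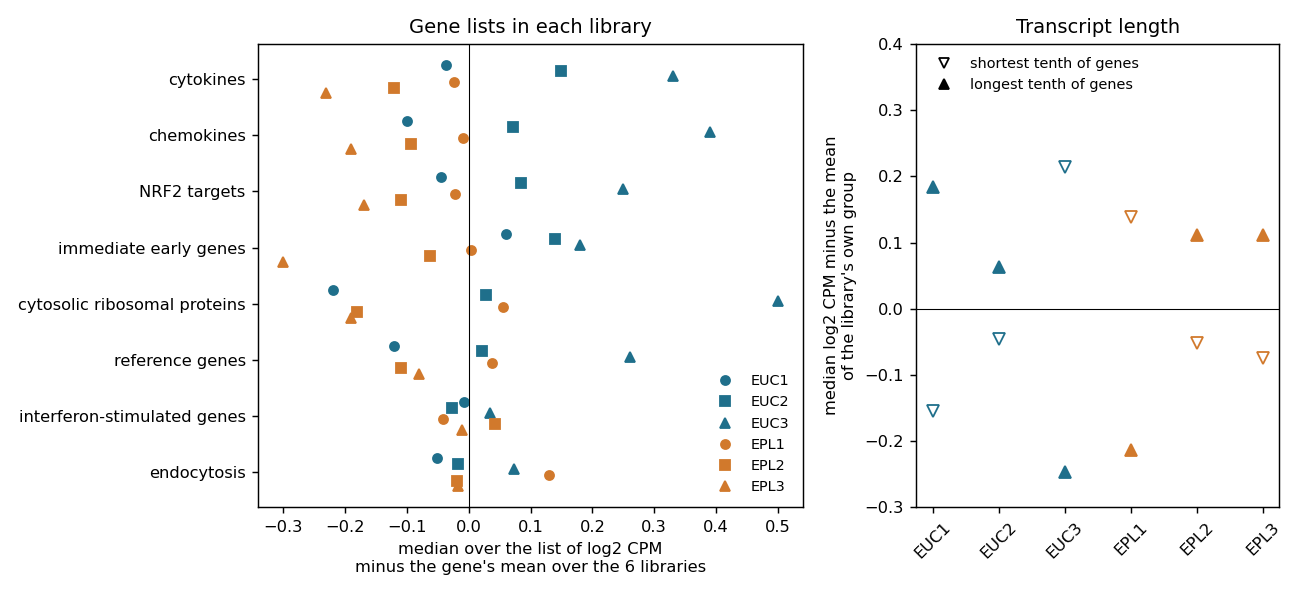
Left, median over each gene list of log2 CPM minus the mean of the gene over the 6 libraries, per library (blue EUC, orange EPL, circle, square and triangle for replicates 1, 2 and 3). Right, median log2 CPM minus the group mean for the tenth of genes with the shortest (open) and the longest (filled) transcripts. EUC3 is the rightmost library for cytokines (0.33) and ribosomal proteins (0.50), and the interferon-stimulated genes stay between -0.042 and 0.043.

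Genes of vesicle uptake differed little between the groups. All 23 endocytosis genes were placed below 2-fold and 18 below 1.5-fold, with a median difference of 0.0049 and 12 of 23 higher in EPL. The median level of the list was 131 CPM. From 100 CPM on, 99.1% of all genes were placed below 2-fold and 83.7% below 1.5-fold, so these counts are not particular to uptake genes. CLTC, the clathrin heavy chain, had 479, 453 and 409 CPM in EUC and 405, 474 and 494 in EPL, which overlapped. DNM1, a dynamin that cuts vesicles from the membrane, was the member at an unadjusted p under 0.05, with 82.5, 73.9 and 59.9 CPM in EUC and 86.2, 89.8 and 82.2 in EPL (0.26, interval 0.04 to 0.47). Its groups overlapped by less than 1 CPM. Among 16 genes of proteoglycans, heparan sulfate synthesis (EXT1, EXT2 and NDST1) and scavenger receptors, 10 were higher in EPL with a median of 0.11. None of the 16 passed an unadjusted p of 0.05, beside 3.51% of all genes. That median was 0.027 without EUC3, 0.031 without EUC3 and EPL1 and 0.043 in the length and GC fit. NDST1, the member with the smallest p, had 30.9, 27.6 and 17.6 CPM in EUC and 28.5, 35.1 and 34.3 in EPL (0.37, interval -0.01 to 0.74). CD36, a scavenger receptor, had 157, 141 and 140 CPM in EUC and 166, 163 and 157 in EPL, all above EUC by a small margin (0.15, interval -0.02 to 0.32). Of 24 lysosomal genes, at a median level of 125 CPM, all were placed below 2-fold and 23 below 1.5-fold. Their median difference was -0.012. CTSB, a lysosomal protease, had 333, 348 and 376 CPM in EUC and 391, 352 and 339 in EPL. GLA, the lysosomal gene with the smallest p, had 131, 143 and 172 CPM in EUC and 146, 118 and 126 in EPL (-0.19, interval -0.42 to 0.03). Of the 12 tested inflammasome genes 9 were placed below 2-fold, beside 70.7% of all genes. None passed an unadjusted p of 0.05, where 3.51% of all genes did. NLRC4, the one with the smallest p, had 4.36, 3.08 and 3.16 CPM in EUC and 5.64, 5.48 and 3.25 in EPL (0.44, interval -0.02 to 0.90). NLRP3 had 181, 186 and 160 CPM in EUC and 185, 195 and 179 in EPL.

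By unadjusted p, the genes nearest to a call with at least 1 CPM were IL12B, RGCC, TNF, ALG14, SRXN1 and CCL20 on the side lower in EPL. RGCC, a regulator of the cell cycle, had 7.36, 7.00 and 6.68 CPM in NC, 11.4, 11.3 and 14.8 in EUC and 7.15, 9.37 and 6.81 in EPL. The EPL libraries overlapped NC and lay below EUC (-0.68, interval -1.01 to -0.36). ALG14, a subunit of an enzyme of N-glycan assembly, had 6.11, 6.98 and 7.69 CPM in EUC and 4.66, 4.27 and 2.87 in EPL, without overlap (-0.82, interval -1.22 to -0.41).

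On the side higher in EPL they were SPDYE1, CCDC9B, PTPRVP, GALC, GPRIN3 and GOLGA8Q. SPDYE1 and GOLGA8Q belong to families of near-identical copies, so reads may be split among copies and their values are uncertain. GALC, the lysosomal galactosylceramidase, had 30.0, 30.2 and 29.9 CPM in NC, 23.2, 23.9 and 24.2 in EUC and 28.9, 27.7 and 30.3 in EPL. The groups did not overlap, EPL lay near NC, and the difference of 0.29 (SE 0.08, interval 0.11 to 0.46) was placed below 1.5-fold (adjusted p = 0.00327). GPRIN3 had 0.976, 1.73 and 1.58 CPM in EUC and 2.69, 3.25 and 3.87 in EPL (1.19, interval 0.45 to 1.94), above 0.358 to 0.704 in NC. CCDC9B, which BEVs lowered from 10.5 to 11.4 CPM in NC, had 2.08, 1.73 and 1.78 in EUC and 2.69, 3.63 and 2.62 in EPL (0.68, interval 0.26 to 1.10).

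A fitted difference of 2-fold or more was found for 211 genes, of which 15 had a mean of at least 1 CPM and 0 had at least 10. At 10 CPM and above 6 genes had a fitted difference of 1.5-fold or more, all lower in EPL, namely IL12B, RGCC, CCL20, G0S2, MZT2B and COX8A. They were listed after their values were seen. G0S2, an inhibitor of lipolysis, had 81.3, 118 and 177 CPM in EUC and 80.6, 75.3 and 78.9 in EPL, so that EUC1 nearly met EPL1 and EUC3 was the high library. COX8A, a subunit of cytochrome c oxidase with a short mRNA, had 23.0, 29.6 and 42.1 in EUC and 28.5, 20.8 and 13.8 in EPL and overlapped.

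The 8 genes with the largest rise over NC all had the lower fitted value in EPL, by -0.10 to -0.40 on the log2 scale, and all 8 were placed below 2-fold. The long noncoding RNA ENSG00000287097 had no count in NC, 27.6, 27.0 and 35.1 CPM in EUC and 23.6, 21.8 and 22.8 in EPL, without overlap (-0.40, interval -0.67 to -0.12). TNFAIP6, a hyaluronan-binding protein of inflammation, had at most 0.064 CPM in NC, 72.8, 85.6 and 114 in EUC and 78.3, 66.9 and 73.1 in EPL, with overlap (-0.32, interval -0.62 to -0.02). ETV3L, an ETS-family gene, had no count in NC, 15.9, 16.1 and 16.7 CPM in EUC and 14.9, 11.9 and 11.6 in EPL, without overlap (-0.35, interval -0.80 to 0.11). CCL4L2 had 158, 211 and 269 CPM in EUC and 169, 164 and 151 in EPL and is uncertain because it shares reads with its near-identical copies. The long noncoding RNA MIR3142HG, host of the miR-146a gene, had no count in NC, 13.5, 16.8 and 19.7 CPM in EUC and 16.5, 17.4 and 12.6 in EPL, with overlap. Of the genes with the greatest fall, SERPINB2, an inhibitor of plasminogen activators, went from 30.3, 37.8 and 40.4 CPM in NC to 2.15, 1.99 and 1.25 in EUC and 1.05, 1.47 and 1.00 in EPL (-0.61, interval -1.22 to -0.02), and its difference was not placed below 2-fold (adjusted p = 0.11). TERT, the catalytic subunit of telomerase, went from 32.4, 31.2 and 28.0 CPM to 2.67, 2.05 and 1.64 in EUC and 2.36, 2.29 and 2.94 in EPL, with overlap (0.26, interval -0.30 to 0.81).

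The difference between PL and UC was set beside the same comparison for *S. aureus* BEVs, which shares no library with it. The comparisons are still not taken as independent. Deviations correlated with log2 transcript length at -0.303 in SUC3, beside -0.289 in EUC3, while EPL and SPL libraries differed in their order. RPL30 had 179 CPM in SUC3 and 203 in EUC3, each the highest of its group, with differences of -0.517 and -0.475. Among genes with at least 10 CPM, the PL to UC differences of the species correlated at 0.35. Whether a shared batch contributed was not tested. By edgeR 1 of 17198 genes differed between SPL and SUC (0.00581%), which was PLIN2, a coat protein of lipid droplets, and 1000 had an unadjusted p of at most 0.05 (5.81%). PLIN2 had 67.6, 74.0 and 85.9 CPM in EUC and 83.5, 71.2 and 79.8 in EPL, which overlapped (0.04, interval -0.21 to 0.29), against 1.14 (log2) higher in SPL than in SUC. For the difference between the species itself edgeR called 0 genes (0%), with 659 at an unadjusted p of at most 0.05 (3.83%), and the smallest adjusted p was 0.0717, for PLIN2 (-1.10, SE 0.17) and for THBS1 (-1.23, SE 0.19). IL23A followed with -1.40 (SE 0.23, adjusted p = 0.0939), from -0.55 with *E. coli* and 0.85 with *S. aureus* BEVs. DESeq2 called these 3 genes, with adjusted p-values of 1.28e-05 for PLIN2, 0.000129 for THBS1 and 0.000129 for IL23A. THBS1, the adhesive glycoprotein thrombospondin 1, had 115, 91.0 and 87.8 CPM in EUC and 78.4, 87.0 and 78.4 in EPL, without overlap (-0.27, interval -0.55 to 0.01), against 0.96 in SPL over SUC. The *S. aureus* BEVs were given at 10 times the protein concentration, so species and dose cannot be told apart here.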

How the data were processed

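The authors extracted total RNA with Trizol, made libraries with an NEB kit and aligned paired reads to hg38 with HISAT2. The submitters' processing notes list FastQC 0.11.5, HISAT2 2.1.0, StringTie 1.3.3b, featureCounts and DESeq 1.28.0. Strand setting and annotation release: not given in the sources used here. Overlapping and antisense genes may therefore share reads. The authors deposited whole-number read counts per Ensembl gene without normalization, for 60286 genes, of which 23219 had no count. Rows that name no gene numbered 0, and so did unused columns. All 15 libraries held 14399421 to 16637345 counts.

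The deposited counts were filtered with filterByExpr (17198 genes, 2037 with an identifier only), normalized by TMM and fitted with edgeR 4.0.16 (glmQLFit and glmQLFTest) in R 4.3.3, with all 15 libraries in 1 fit and a biological coefficient of variation of 0.118. Adjustment was by Benjamini-Hochberg over all tested genes, and the thresholds were those of the study. CPM used TMM library sizes, and log2 CPM of single libraries a prior count of 2. Standard errors and 95% intervals came from the negative binomial information of the same fit, scaled by the quasi-likelihood dispersion and not below the Poisson error. Limits of 2-fold and 1.5-fold were tested by a pair of 1-sided tests with those errors. Intervals and tests were tested on simulated data. The simulation drew each gene independently, without an axis shared by genes such as that of EUC3 and EPL1. It therefore cannot show how intervals and tests hold under such an axis. DESeq2 1.42.0, another filter, size factors, fewer libraries, a replicate block and leaving out each library were alternatives. The correction for transcript length and GC content (mgcv 1.9.3, GENCODE release 44, 99.86% of tested genes) and the fit without EUC3 and EPL1 were chosen after seeing the data.

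The comparison, the gene lists and the rules for named genes were chosen with earlier results of these data known, so no list is independent support. Named genes were the 6 with the smallest p per direction at 1 CPM or more, the 8 largest rises and 4 largest falls over NC at 10 CPM or more, a fixed set, and the member of each list with the smallest p. The fixed set was IL1B, IL6, CXCL8, TNF, IL12B, IL23A, CXCL10, CCL3, NFKBIA, TNFAIP3, GAPDH, ACTB, PLIN2, PDK4 and THBS1. Other members are examples chosen after their values were seen. No 2 libraries of a group agreed within sampling noise (chi-square per gene 2.81 to 46.3). Replicate numbers did not pair the EUC with the EPL libraries: the deviations of those with the same number correlated at -0.45, 0.094 and -0.34 over genes. Deviations correlated with log2 transcript length at 0.257, 0.134 and -0.289 in EUC1 to EUC3 and 0.226, 0.160 and -0.303 in SUC1 to SUC3. In NC1 to NC3 the values were 0.125, -0.00813 and -0.121. The order was another in EPL1 to EPL3 (-0.288, 0.207 and 0.198) and in SPL1 to SPL3 (0.0187, -0.106 and 0.0882). Whether libraries of the same number shared a batch was not tested.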

Additional observations from a re-analysis of the deposited data

How the results depend on the processing

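The count of genes called between EPL and EUC was 0 in every alternative run, and the 58 named genes gave 870 alternative values, of which 0 passed the thresholds and 13 changed sign. Without the filter on low counts (37067 genes) edgeR gave 1555 genes at an unadjusted p of at most 0.05 instead of 604, and IL12B and G0S2 (adjusted p = 1.41e-05), IL23A (0.00372), TNF (0.00591) and CCL20 (0.00777) passed an adjusted p of 0.01 with differences under 2-fold, while their adjusted p was 0.947 with the filter and 0.447 to 0.981 in DESeq2. The cause was not tested. With the 6 libraries alone there were 243 genes at an unadjusted p of at most 0.05 and 5011 placed below 1.5-fold instead of 7933, with fewer residual degrees of freedom. Leaving out each library gave 402 (without EUC3) to 2232 (without EUC1) genes at an unadjusted p of at most 0.05, with 1721 without EPL1, and 5864 (without EUC1) to 8725 (without EUC3) genes placed below 1.5-fold. It gave 11182 to 12257 genes below 2-fold and 12368 to 13399 with an interval inside 2-fold. With the raised and lowered genes found anew each time, the median of the raised genes stayed between -0.0624 and -0.0454 and that of the lowered genes between 0.0181 (without EPL1) and 0.145 (without EUC1). Genes called for the difference between the species numbered 0 in the main fit, 3 in DESeq2, 4 without the filter (IL23A, IL12B, THBS1 and PLIN2), 2 with the length and GC fit (THBS1 and PLIN2), and 0 to 1 when a library was left out, the 1 being THBS1 without SUC1.

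The labels give the groups the same replicate numbers, which did not pair the EUC with the EPL libraries. A fit with the replicate number as a block gave 0 called genes, 655 at an unadjusted p of at most 0.05, and medians of -0.0491 for raised and 0.0699 for lowered genes. With the block and the 6 libraries alone, 100 genes had an unadjusted p of at most 0.05 and 0 were placed below 1.5-fold.

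Depths of 15457227 to 16637345 counts per library limit the comparison below 10 CPM, where a difference of 2-fold could not be set aside for many genes, IL6 among them.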

Other observations

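Metallothioneins, small proteins that bind zinc and copper, had the lower fitted value in EPL for all 6 tested members, with a median of -0.47, against 0.0032 over all genes. MT2A had 271, 294 and 531 CPM in EUC and 366, 263 and 222 in EPL, and MT1E had 84.1, 102 and 168 in EUC and 110, 84.8 and 78.2 in EPL. EUC3 was the highest library for both and the groups overlapped. Without EUC3 the median was -0.019 with 4 of 6 lower, and without EUC1 it was -0.68. Without EUC3 and EPL1 it was -0.20 with 6 of 6 lower, and in the length and GC fit -0.45 with 6 of 6.

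ER stress genes were lower in EPL for 13 of 15 tested members with a median of -0.14, and without EUC3 for 4 of 15 with a median of 0.014. The median was -0.27 without EUC1, -0.21 without EPL1 and -0.077 without EPL3. It was -0.091 with 12 of 15 lower without EUC3 and EPL1, and -0.078 with 13 of 15 in the length and GC fit. PPP1R15A, which restarts translation after stress, had 163, 173 and 199 CPM in EUC and 163, 144 and 126 in EPL (-0.31). The p53 targets and survival genes had a median of -0.14 with 14 of 19 lower in EPL, and without EUC3 it was -0.054 with 12 of 19. Without EUC3 and EPL1 it was -0.032 with 11 of 19, and in the length and GC fit -0.092 with 17 of 19. CDKN1A, the cell cycle inhibitor p21, had 330, 356 and 376 CPM in EUC and 325, 294 and 287 in EPL, without overlap (-0.23, interval -0.40 to -0.06). Genes of cholesterol synthesis, DNA replication and glycolysis were placed below 2-fold for all of 19, 20 and 19 tested members, with medians of -0.067, -0.019 and -0.046. At 10 to 100 CPM 99.0% of all genes were so placed, and from 100 CPM on 99.1%. The 13 genes of the mitochondrial genome had a median of -0.019 and were all placed below 2-fold.

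Of the co-stimulation and maturation genes 10 of 15 were lower in EPL, with a median of -0.042. CD83, a maturation marker, had 117, 149 and 178 CPM in EUC and 109, 117 and 120 in EPL (-0.36, interval -0.66 to -0.05), while CD40 had 128, 140 and 168 in EUC and 138, 128 and 125 in EPL (-0.16, interval -0.38 to 0.06). Both overlapped. Among the JAK-STAT and IRF regulators, IRF8, a myeloid transcription factor that BEVs lowered, had 1030, 1063 and 1057 CPM in NC, 272, 331 and 341 in EUC and 267, 265 and 279 in EPL (-0.22, interval -0.40 to -0.03). SOD2, the mitochondrial superoxide dismutase, had 4898, 5821 and 6855 CPM in EUC and 4809, 4987 and 5055 in EPL (-0.24, interval -0.46 to -0.02).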
